A study of Bos taurus with 8 samples.

Results

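Axon guidance genes encode 4 ligand and receptor systems: the ephrins with their Eph receptors, the semaphorins with plexins and neuropilins, the SLITs with ROBO receptors, and the netrins with UNC5 receptors. Their transcripts were measured by RNA-seq in the rumen, the forestomach in which cattle ferment feed. Members were taken by gene symbol from the deposited count table, which gave 68 of 33132 genes: 22 ephrins and Eph receptors, 31 semaphorins, plexins and neuropilins, 7 SLITs and ROBOs, and 8 netrins and UNC5 receptors. The samples were 4 adult steers (castrated males) and 4 newborn male calves, all Angus crosses, with 1 library per animal. Age and castration differ together between the groups, and the labels used here give no age in days, diet or batch. The question of the series is which signals go with postnatal maturation of the organ, and steers are set against calves throughout.

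These proteins were named for steering growing axons, but epithelium, blood vessels and muscle use them too. Ephrins stay attached to the cell that makes them and signal to Eph receptor tyrosine kinases on a touching cell, often to keep cell groups apart or in place, as shown in the mouse intestinal crypt. Semaphorins are secreted (class 3) or membrane-bound (classes 4 to 7) and act mostly through plexins, with neuropilins as co-receptors for most class 3 members. SLITs are secreted ligands of ROBO receptors, and netrins act through DCC, neogenin (NEO1) and the UNC5 receptors.

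Library totals were 42322022 to 54449684 counts. Levels are counts per 1000000 (CPM), scaled by library size with TMM factors, and changes are log2 values as steer minus calf with the standard error (SE) of the fit. Log2 CPM correlated across genes at 0.907 to 0.962 between steers, 0.941 to 0.966 between calves and 0.846 to 0.891 between the groups. The basal keratinocyte keratin KRT5 averaged 3491 CPM in steers and 3161 CPM in calves, so both groups held the stratified epithelium of the rumen. Of 8 basal keratinocyte markers, 2 rose in steers (KRT14 and DST) and 1 fell (COL17A1), and their median log2 change was 0.61. Their summed CPM was 6268 to 9008 in steers and 5548 to 7126 in calves. Over all tested genes, 7.7% rose and 9.16% fell. The summed CPM of 7 markers of differentiated squamous cells was 216 to 948 in steers against 36452 to 89132 in calves. Of these, 6 of 6 tested markers fell, and IVL could not be measured because its whole span is shared with another gene. The keratins KRT4 and KRT13, which averaged 37739 and 29705 CPM in calves, made up most of the calf sum. Whether the sum follows the number of differentiated cells or the keratins they express was not tested. Positions are as deposited; none of the sources used here names their build.

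More axon guidance genes fell than rose in steers, and most were not called. Of the 68 members, 61 passed the filter on low counts, and 19 of these fell and 4 rose in steers at a Benjamini-Hochberg adjusted p under 0.05 with edgeR's quasi-likelihood test. Over all 16326 genes tested, 16.9% were called, 9.16% as lower and 7.7% as higher. The median log2 change was -0.62 over the tested members and 0.04 over all tested genes. It was -0.69 in the ephrins and Eph receptors and -0.58 in the semaphorins, plexins and neuropilins. In the netrins and UNC5 receptors it was -0.84, whereas in the SLITs and ROBOs it was positive, at 0.995. CPM did not overlap between the groups for 23 members with steers below and 3 with steers above, against 12.8% and 10.5% of all tested genes. The largest falls were in the Eph receptor EPHA7, the secreted semaphorin SEMA3A, the membrane semaphorin SEMA5A and the netrin receptors UNC5C and UNC5A. SEMA5A apart, these were under 1 CPM in every steer, so the sizes of their falls are imprecise. The members that rose were ROBO2, SEMA3C, NRP2 and SEMA4G. In whole tissue, fewer cells of a type and less RNA per cell cannot be told apart.

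**Figure D1:**
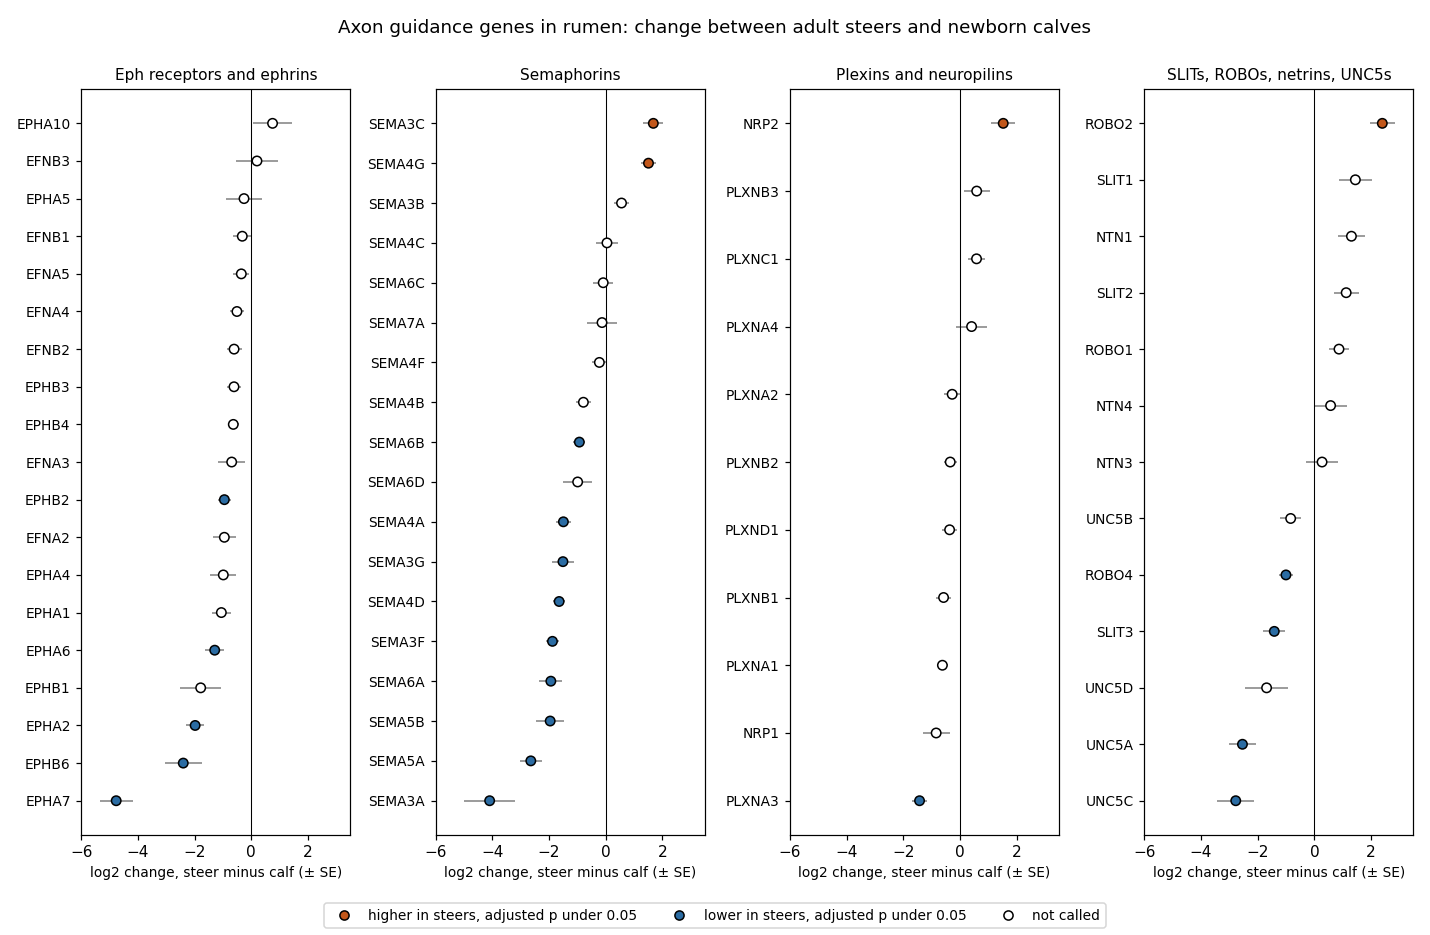
Log2 change between steers and calves for the 61 tested members (x axis, steer minus calf, bars ± SE), sorted by change within 4 panels. Filled points passed the adjusted p threshold (orange higher, blue lower in steers). Most filled points lie left of 0, from -0.93 for SEMA6B to -4.77 for EPHA7, and 4 lie to the right.

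Of the 7 members that were not tested, 5 had too few counts and 2 could not be measured. EFNA1, an ephrin, and NTN5, a netrin, had no count in any library because 100% of their counted spans lie inside other genes, LOC107132270 and SEC1, and reads in shared stretches were dropped. EPHA3, EPHA8, SEMA3D and ROBO3 averaged at most 0.105 CPM in steers and 0.167 CPM in calves. SEMA3E had no count in steers and 2, 32, 2 and 2 counts in calves 1 to 4, so calf 2 held nearly all of it.

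Among the Eph receptors, 5 of 12 tested fell in steers (EPHA7, EPHB6, EPHA2, EPHA6 and EPHB2) and 0 rose with edgeR. Over all tested genes, edgeR called 9.16% as lower and 7.7% as higher. DESeq2 called 7 Eph receptors as lower and limma-voom 6, each with 0 higher. DESeq2 called 13.1% of all tested genes as lower and 11.9% as higher, and limma-voom 9.98% and 7.42%. At an unadjusted p under 0.05, 9 Eph receptors were lower and 0 higher, where 16.1% of all tested genes were lower and 15.6% higher. EPHA7 (chromosome 9, 56751257 to 56961990), a receptor known from cortical and sensory map formation in mouse, had 0.05, 0.167, 0.224 and 0.210 CPM in steers 1 to 4, against 2.98, 2.61, 4.29 and 8.47 CPM in calves 1 to 4. Every steer was far below every calf, with a log2 change of -4.77 ± 0.59 (adjusted p = 0.000867). The change was -4.97 to -4.29 with any library left out. Steer counts were 2, 6, 12 and 12, so its size is imprecise.

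EPHA2 (chromosome 2, 135945217 to 135972064), a prominent Eph receptor of human keratinocytes, had 23.7, 18.9, 36.0 and 42.9 CPM in steers, against 120.9, 91.0, 172 and 96.5 CPM in calves. The groups did not overlap, and the level fell by 1.98 ± 0.32 on the log2 scale (adjusted p = 0.00322). A stretch of 20.4% of its counted span is shared with LOC112443516 and adds no reads. EPHA1 (chromosome 4, 106788864 to 106804343), first described in epithelial cells, had the most counts of the Eph receptors. It had 261, 179, 168 and 426 CPM in steers, against 640.1, 439, 616 and 456 CPM in calves. The groups did not overlap, but steer 4 came close to calf 2, and the change of -1.06 ± 0.33 missed the threshold (adjusted p = 0.0544). It passed without steer 4 (-1.41, adjusted p = 0.00928), and also with DESeq2 (0.0106), limma-voom (0.0325), upper quartile scaling (0.0439) and library size alone (0.0418).

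EPHB6 (chromosome 4, 106164451 to 106180964), a receptor without kinase activity, lies 607.9 kb from EPHA1. It had 2.75, 13.6, 29.0 and 39.1 CPM in steers, against 124.8, 67.4, 85.9 and 169 CPM in calves. Steer 1 was lowest by far, and no steer reached a calf. The change of -2.40 ± 0.66 (adjusted p = 0.0337) lost its call if any of steers 2 and 3 and calves 1, 3 and 4 was left out, at log2 changes of -2.59 to -2.13, and was -3.06 without calf 2 and steer 4. EPHB2 (chromosome 2, 129898024 to 130117852), which with EPHB3 positions cells in the mouse intestinal crypt, had 18.8, 17.8, 17.2 and 18.1 CPM in steers, against 39.7, 21.8, 40.8 and 36.6 CPM in calves. The steers were nearly equal and calf 2 stood close to them. EPHB2 fell by 0.95 ± 0.22 (adjusted p = 0.0174), a call lost without steer 3, calf 1 or calf 3 (adjusted p = 0.0502 to 0.0583). EPHA6 (chromosome 1, 40974249 to 41996479), a receptor best known from brain, had 1.20, 0.947, 0.820 and 1.05 CPM in steers, against 1.82, 2.94, 2.27 and 2.80 CPM in calves, with no overlap. Its fall of 1.29 ± 0.33 (adjusted p = 0.0248) lost the call if any of steers 2 and 3 and calves 2, 3 and 4 was left out.

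EPHB3 and EPHB4 did not pass. EPHB3, the crypt partner of EPHB2, had 66.3, 60.8, 54.8 and 85.2 CPM in steers, against 115, 74.1, 136 and 82.2 CPM in calves, and steer 4 overlapped the calves (log2 change -0.61 ± 0.24, adjusted p = 0.119). EPHB4, a receptor of venous endothelium, had 24.5, 27.1, 30.7 and 24.7 CPM in steers, against 39.4, 55.1, 36.3 and 35.2 CPM in calves. Its groups did not overlap, and the change of -0.64 ± 0.20 fell just short (adjusted p = 0.0558; 0.0191 with DESeq2). The remaining tested receptors EPHA4, EPHA5, EPHA10 and EPHB1 averaged under 1 CPM in both groups, with log2 changes of -1.79 to 0.75. Of these, EPHA4 did not overlap between the groups, at 0.167 to 0.526 CPM in steers and 0.711 to 0.978 CPM in calves (adjusted p = 0.178), and EPHB1 passed at -2.84 without steer 4.

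None of the 7 tested ephrins was called, by edgeR, DESeq2 or limma-voom. At an unadjusted p under 0.05, 2 of the 7 were lower and 0 higher, against 16.1% and 15.6% of all tested genes. EFNA5, an A ephrin known from retinal maps in mouse, had 30.5, 17.3, 21.5 and 44.9 CPM in steers, against 38.6, 40.5, 31.6 and 35.2 CPM in calves. Steer 4 exceeded every calf, and the change was -0.35 ± 0.29 (adjusted p = 0.442). EFNA4 had 39.7, 22.6, 25.7 and 25.0 CPM in steers, against 41.9, 29.9, 39.1 and 49.6 CPM in calves (-0.51 ± 0.24, adjusted p = 0.178). EFNB2, the arterial ligand of EPHB4, had 15.3, 24.9, 28.8 and 29.8 CPM in steers, against 34.4, 52.2, 35.0 and 29.0 CPM in calves, with a change of -0.61 ± 0.27 (adjusted p = 0.149). The other tested ephrins EFNA2, EFNA3, EFNB1 and EFNB3 overlapped between the groups, at adjusted p = 0.14 to 0.887. Whether the ephrins differed from the Eph receptors in their change was not tested.

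**Figure D2:**
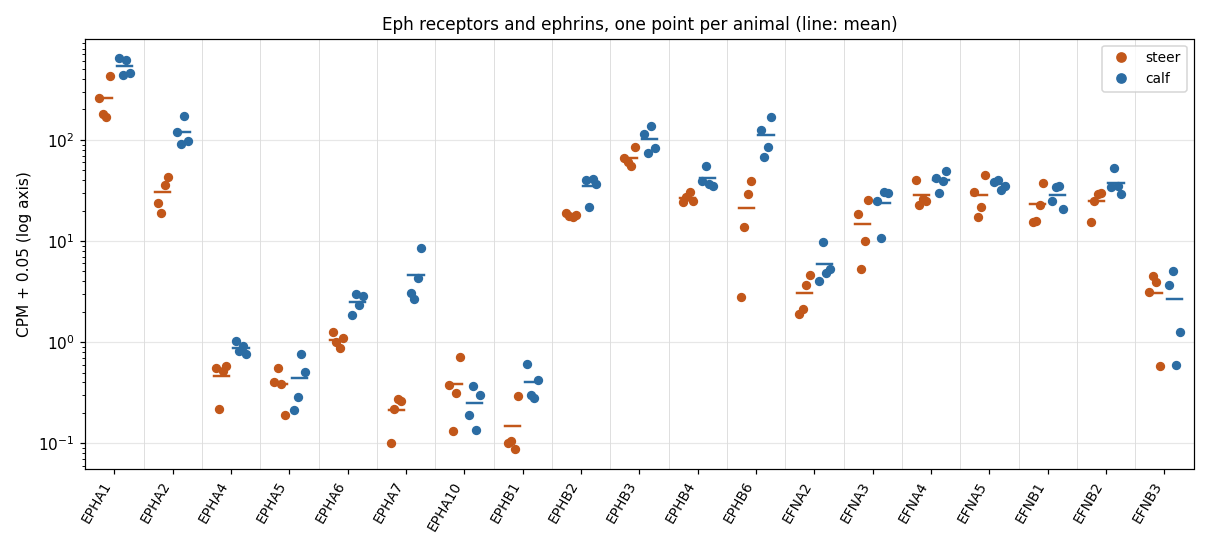
CPM of the 12 tested Eph receptors and 7 tested ephrins in each animal (log axis, 0.05 added to each value), steers in orange and calves in blue, with lines at the group means. EPHA7, EPHA2 and EPHB6 separate the groups by a wide gap, whereas points of all 7 ephrins overlap.

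The semaphorins had the highest number of calls. Of 18 tested, 9 fell in steers and 2 rose, against 9.16% and 7.7% of all tested genes. Members of classes 3, 4, 5 and 6 were among those that fell. Class 3, the secreted semaphorins, moved in both directions: SEMA3A, SEMA3F and SEMA3G fell and SEMA3C rose. SEMA3F (chromosome 22, 50161385 to 50199178), a repulsive ligand for neuropilin-2, had 28.8, 40.9, 53.2 and 33.3 CPM in steers, against 132, 162, 148 and 133 CPM in calves. The groups stood well apart, and SEMA3F fell by 1.88 ± 0.23 on the log2 scale (adjusted p = 0.000809). It kept its call in all 18 alternatives. SEMA3C (chromosome 4, 39939586 to 40147672), which in mouse guides neural crest cells in the outflow tract of the heart, went the other way. It had 19.6, 50.6, 50.3 and 20.8 CPM in steers, against 8.99, 13.5, 10.1 and 11.4 CPM in calves. Steers 2 and 3 were highest, every steer exceeded every calf, and the level rose by 1.68 ± 0.35 (adjusted p = 0.0111).

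SEMA3A (chromosome 4, 36083514 to 36635794), the classical repellent for sensory axons, had 0.300, 0.0557, 0 and 0.0701 CPM in steers, against 1.00, 2.71, 1.14 and 2.34 CPM in calves. Steer counts were 12, 2, 0 and 4, so the size of its change of -4.10 ± 0.89 (adjusted p = 0.0132) is imprecise. It was -5.36 without steer 1 and -4.79 with limma-voom, and the call held in the 17 alternatives that tested it. SEMA3G (chromosome 22, 48445721 to 48457031), a semaphorin of endothelial cells, had 4.35, 4.18, 10.5 and 14.3 CPM in steers, against 23.2, 27.4, 20.8 and 23.6 CPM in calves. Steers 3 and 4 lay nearer to the calves, without overlap. The change was -1.51 ± 0.39 (adjusted p = 0.0277), and the call ended without steer 1 or any of calves 1, 2 and 4 (adjusted p = 0.0571 to 0.0625) and with library size alone (0.057). SEMA3B, which sits 65.9 kb from SEMA3F, had 260, 342, 242 and 153 CPM in steers, against 193, 146, 133 and 204 CPM in calves. Its groups overlapped through steer 4 (0.56 ± 0.27, adjusted p = 0.193).

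In class 4, the membrane-bound semaphorins that bind B plexins and immune cell receptors, SEMA4A and SEMA4D fell and SEMA4G rose. SEMA4D (chromosome 8, 88627195 to 88753672), the ligand of plexin-B1, had 26.8, 17.3, 23.6 and 29.3 CPM in steers, against 79.9, 68.2, 89.4 and 65.2 CPM in calves. It fell by 1.64 ± 0.22 on the log2 scale (adjusted p = 0.00122), with no overlap. SEMA4A (chromosome 3, 14607127 to 14635339), which acts on T cells in mouse, had 51.5, 29.7, 35.2 and 57.4 CPM in steers, against 143, 87.1, 137 and 122 CPM in calves, a fall of 1.49 ± 0.27 (adjusted p = 0.00526). All steers lay below the lowest calf. SEMA4G (chromosome 26, 21809147 to 21822834) had 13.9, 16.3, 18.1 and 19.2 CPM in steers, against 5.78, 5.99, 8.25 and 3.64 CPM in calves, and rose by 1.51 ± 0.27 (adjusted p = 0.00553). These 3 calls held in all 18 alternatives. SEMA4B, the class 4 member with the most counts, had 186, 121, 187 and 264 CPM in steers, against 374, 255, 383 and 297 CPM in calves. Steer 4 exceeded calf 2, and SEMA4B was not called (-0.79 ± 0.27, adjusted p = 0.0753; 0.0296 without steer 4, 0.0251 with DESeq2). The counted span of SEMA4B is 0.45 times its length in the ARS-UCD2.0 RefSeq table, and that of SEMA4A is longer than its RefSeq length (28213 against 19868 bases). SEMA4C had 89.1, 217, 278 and 94.5 CPM in steers, against 133, 225, 174 and 126 CPM in calves, a wide spread within steers and no separation (adjusted p = 0.954). SEMA4F was not called, at 6.81 ± 2.15 CPM in steers and 7.95 ± 0.40 CPM in calves (adjusted p = 0.635).

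Both class 5 semaphorins, membrane proteins with thrombospondin repeats, fell. SEMA5A (chromosome 20, 63654415 to 64222832) had 2.10, 4.34, 5.44 and 3.79 CPM in steers, against 18.7, 41.7, 16.1 and 21.5 CPM in calves. Calf 2 was highest, and the lowest calf was still well above the highest steer. SEMA5A fell by 2.64 ± 0.39 on the log2 scale (adjusted p = 0.00224). SEMA5B (chromosome 1, 67238794 to 67362783) averaged 1.54 ± 0.91 CPM in steers and 5.98 ± 2.60 CPM in calves. Its change of -1.96 ± 0.50 (adjusted p = 0.025) lost the call without steer 1, calf 2 or calf 4, at -1.84 to -1.70, and without calf 2 and steer 4 (-1.51). In class 6, the ligands of A plexins, SEMA6A (chromosome 7, 37316979 to 37446094) and SEMA6B (chromosome 7, 19555093 to 19585511) fell. SEMA6A had 0.550, 0.668, 1.45 and 1.40 CPM in steers, against 2.98, 4.72, 3.96 and 4.04 CPM in calves (-1.94 ± 0.40, adjusted p = 0.0107). SEMA6B had 8.30, 5.85, 7.34 and 7.38 CPM in steers, against 13.5, 15.6, 11.03 and 14.8 CPM in calves (-0.93 ± 0.22, adjusted p = 0.0172), and lost its call without calf 1 or calf 4 (0.0525 and 0.0546). SEMA6C, SEMA6D and SEMA7A, a lipid-anchored semaphorin, were not called (adjusted p = 0.896, 0.218 and 0.897). SEMA7A had 1.20, 2.73, 5.51 and 1.86 CPM in steers, against 2.33, 2.74, 5.41 and 1.88 CPM in calves, nearly the same spread in both.

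**Figure D3:**
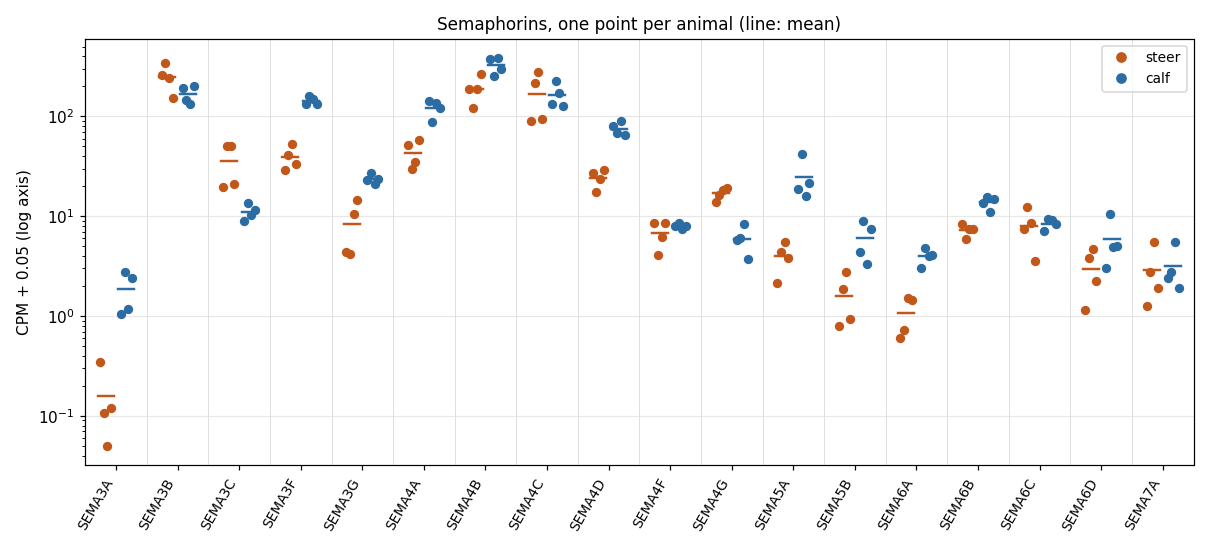
CPM of the 18 tested semaphorins in each animal (log axis, 0.05 added to each value), steers in orange and calves in blue, with lines at the group means. SEMA3F, SEMA4D and SEMA5A show calves above steers with a gap, SEMA3C and SEMA4G show steers above calves, and SEMA3B and SEMA4C overlap.

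Among the semaphorin receptors, 1 of 9 plexins fell and 0 rose, where 9.16% of all tested genes fell and 7.7% rose. The share of plexins called was 11.1%, against 16.9% of all tested genes, and 9 plexins are too few to compare with these shares. DESeq2 called 2 plexins as lower and 0 as higher, against 13.1% and 11.9% of all tested genes. At an unadjusted p under 0.05, 3 plexins were lower and 0 higher, against 16.1% and 15.6% of all tested genes. Plexins B1 and B2 had the most counts. PLXNB2, a receptor of class 4 semaphorins in epithelia, had 483, 392, 315 and 414 CPM in steers, against 605, 425, 446 and 562 CPM in calves (-0.35 ± 0.23, adjusted p = 0.343). PLXNB1, the SEMA4D receptor, averaged 187 ± 53 CPM in steers and 279.9 ± 52 CPM in calves (-0.58 ± 0.25, adjusted p = 0.143; 0.0378 with library size alone). The plexin that fell was PLXNA3 (X chromosome, 37530719 to 37533654), which mediates SEMA3F repulsion in mouse. It had 32.1, 25.1, 22.8 and 21.5 CPM in steers, against 86.4, 53.6, 44.6 and 89.0 CPM in calves, with no overlap (-1.43 ± 0.27, adjusted p = 0.00646). Only 2936 bases of PLXNA3 were counted, 0.18 times the gene length in the ARS-UCD2.0 RefSeq table, so its value rests on part of the gene. PLXNA1 had 69.1, 49.9, 64.3 and 89.1 CPM in steers, against 102.7, 114, 95.3 and 106.7 CPM in calves. Its change of -0.62 ± 0.21 missed the threshold (adjusted p = 0.0667) and passed without steer 4 (0.0231) and with DESeq2 (0.0259). PLXND1, the SEMA3E receptor of vessels, had 39.1, 70.5, 84.8 and 47.1 CPM in steers, against 74.7, 88.6, 56.8 and 91.6 CPM in calves (adjusted p = 0.401). PLXNA2, PLXNA4, PLXNB3 and PLXNC1 had log2 changes of -0.28 to 0.59 and overlapped.

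Of the neuropilins, co-receptors for class 3 semaphorins and VEGF, NRP2 rose and NRP1 was not called. NRP2 (chromosome 2, 94027745 to 94147956) had 35.5, 101.3, 106 and 38.3 CPM in steers, against 23.6, 37.7, 21.3 and 15.1 CPM in calves. Steers 2 and 3 stood apart from steers 1 and 4, and calf 2 overlapped steer 1. NRP2 rose by 1.53 ± 0.43 on the log2 scale (adjusted p = 0.0369), a call lost if any of steers 2 and 3 and calves 1, 3 and 4 was left out (log2 changes 1.26 to 1.51) and with library size alone (1.38). NRP1 averaged 0.861 ± 0.246 CPM in steers and 1.55 ± 0.80 CPM in calves (-0.84 ± 0.48, adjusted p = 0.26).

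In the SLIT and ROBO family, 1 of 6 tested members rose (ROBO2) and 2 fell (SLIT3 and ROBO4). Over all tested genes, 7.7% rose and 9.16% fell, and 6 members are too few to compare with these shares. ROBO2 (chromosome 1, 24412954 to 25068041), a SLIT receptor needed for the ureter and kidney in mouse, had 14.4, 6.35, 7.73 and 22.3 CPM in steers, against 2.19, 3.65, 1.89 and 1.88 CPM in calves. Every steer exceeded every calf, and ROBO2 rose by 2.40 ± 0.44 on the log2 scale (adjusted p = 0.00628), in all 18 alternatives. Its neighbour ROBO1, 1048.5 kb away, had 25.6, 19.9, 42.8 and 66.6 CPM in steers, against 16.9, 26.3, 19.6 and 22.2 CPM in calves. Steers 3 and 4 exceeded all calves and steers 1 and 2 did not, so ROBO1 was not called (0.87 ± 0.36, adjusted p = 0.127). It passed narrowly without steer 2 (1.09, adjusted p = 0.0493).

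ROBO4 (chromosome 29, 28351068 to 28365789), the receptor of this family confined mainly to vascular endothelium in mouse and human, had 21.7, 31.5, 31.6 and 20.7 CPM in steers, against 42.8, 61.3, 36.9 and 70.5 CPM in calves. It fell by 1.00 ± 0.26 (adjusted p = 0.0267), and the call ended with steer 1, calf 2 or calf 4 removed, or steer 4 and calf 2 together (log2 change -0.93 to -0.82). Of 10 blood vessel endothelial markers, 3 were lower in steers (PECAM1, TIE1 and ESAM), against 9.16% of all tested genes. The summed CPM of the list was 271 to 322 in steers and 351 to 801 in calves, with no marker at 0. The part of endothelial content in the lower levels of ROBO4 and SEMA3G was not tested.

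Among the SLIT ligands only SLIT3 was called. SLIT3 (chromosome 20, 442969 to 1163718), a ligand needed for the diaphragm in mouse, had 7.67, 4.84, 6.95 and 18.1 CPM in steers, against 22.9, 33.3, 18.7 and 25.4 CPM in calves. Steer 4 came close to calf 3. The change of -1.416 ± 0.40 (adjusted p = 0.0359) lost its call if any of steers 1, 2 and 3 and calves 1, 2 and 4 was left out (adjusted p = 0.0659 to 0.0957) and with library size alone (0.0567). SLIT2, the best-studied ligand of ROBO1, had 6.60, 13.8, 12.7 and 3.05 CPM in steers, against 3.42, 4.52, 3.70 and 4.94 CPM in calves. Steers 1, 2 and 3 lay above the calves and steer 4 below them (1.12 ± 0.44, adjusted p = 0.109; 1.41 with adjusted p = 0.0146 without steer 4). SLIT1, mainly a ligand of the nervous system, averaged 1.26 ± 0.54 CPM in steers and 0.457 ± 0.307 CPM in calves (adjusted p = 0.126).

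Of 7 tested members of the netrin family 2 were called, where 16.9% of all tested genes were. Both were receptors, and both fell. UNC5A (chromosome 7, 38268514 to 38332964), a neuronal netrin receptor, had 0.400, 0.668, 0.186 and 0.316 CPM in steers, against 2.93, 1.41, 2.36 and 2.38 CPM in calves. The groups did not overlap, and UNC5A fell by 2.54 ± 0.48 on the log2 scale (adjusted p = 0.00658), a call kept in all 18 alternatives. UNC5C (chromosome 6, 28932513 to 29361537), needed for the cerebellum in mouse, had 0.15, 0.111, 0.186 and 0.0526 CPM in steers, against 0.652, 1.10, 0.295 and 1.422 CPM in calves. Its change of -2.78 ± 0.65 (adjusted p = 0.0174) rests on 3 to 10 counts per steer. The call ended without calf 4 (-2.43, adjusted p = 0.055) and without calf 2 and steer 4 (-2.37). It also ended with the replicate number as a block (-2.63, adjusted p = 0.0897). UNC5B, the UNC5 receptor of vessels, had 14.5, 7.85, 14.7 and 29.5 CPM in steers, against 22.6, 38.9, 25.0 and 32.5 CPM in calves. It was not called (-0.84 ± 0.37, adjusted p = 0.153) but passed without steer 4 (-1.26, adjusted p = 0.0188). UNC5D averaged 0.436 ± 0.451 CPM in steers and 1.40 ± 0.90 CPM in calves (adjusted p = 0.159; -2.67 with adjusted p = 0.0401 without steer 1).

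None of the 3 tested netrins was called with edgeR or limma-voom, DESeq2 called NTN1 as higher, and 1 netrin was higher at an unadjusted p under 0.05 (15.6% of all tested genes were). NTN1 (chromosome 19, 28447285 to 28652556), the founding netrin, had 23.9, 96.0, 85.9 and 25.3 CPM in steers, against 23.2, 31.5, 20.1 and 18.5 CPM in calves. Steers 2 and 3 stood well above all other animals, and steers 1 and 4 lay within the calf range. The change of 1.31 ± 0.47 (adjusted p = 0.0837) passed without steer 1 (0.0423), without steer 4 (0.0309) and with DESeq2 (0.0281). NTN3 averaged 2.78 ± 1.72 CPM in steers and 2.30 ± 1.23 CPM in calves (adjusted p = 0.784). NTN4, a basement membrane netrin, was under 1 CPM in both groups, with 40.4% of its counted span shared with LOC112446712 and LOC112446898.

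**Figure D4:**
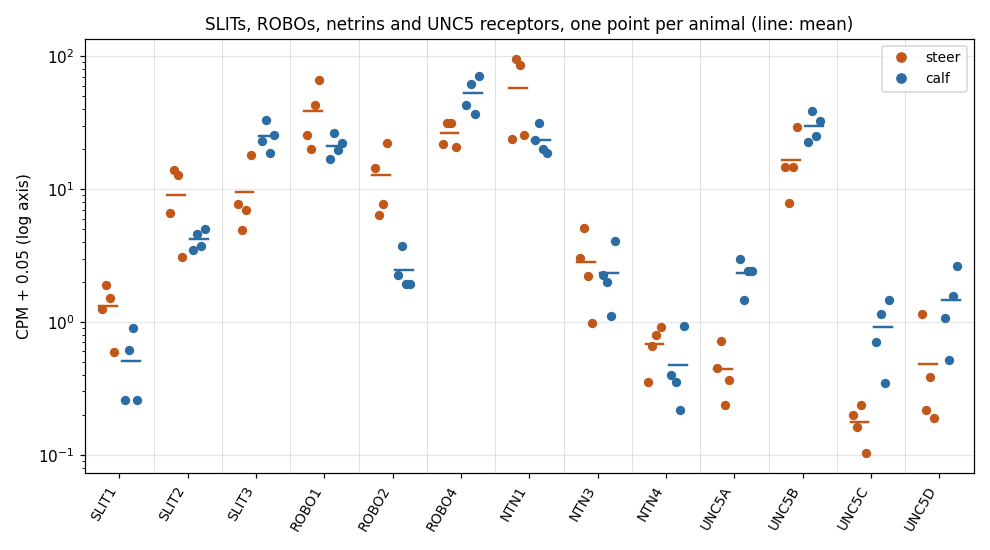
CPM of the 6 tested SLITs and ROBOs and the 7 tested netrins and UNC5 receptors in each animal (log axis, 0.05 added to each value), steers in orange and calves in blue, with lines at the group means. ROBO2 lies higher in all steers, UNC5A lies lower in all steers, and NTN1 splits the steers into a pair at 85.9 and 96.0 CPM and a pair at 23.9 and 25.3 CPM.

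Several members were highest in steers 2 and 3, and the same libraries were high in a smooth muscle gene. The smooth muscle myosin MYH11 had 1275, 2860, 3277 and 1092 CPM in steers, against 580.2, 892, 374 and 328 CPM in calves, the same order of pairs within steers as NRP2, SEMA3C, SEMA4C, NTN1 and SLIT2. The summed CPM of the 10 smooth muscle markers ranked the steers differently, at 56449.9, 109320, 51986 and 10944 in steers 1 to 4, against 6376 to 18591 in calves. Of the 9 markers tested, 4 rose (MYH11, DES, CNN1 and LMOD1) and 1 fell (ACTA2), against 7.7% and 9.16% of all tested genes. None was at 0. ACTA2 averaged 76.9 CPM in steers and 1314 CPM in calves (-4.10 ± 0.33, adjusted p = 0.000121). Whether its reads were confused with those of ACTG2 was not tested. The 8 fibroblast markers summed to 598, 1398, 1208 and 867 CPM in steers and to 1674 to 4838 CPM in calves. Of these 8, 3 were lower in steers (COL1A1, COL1A2 and DCN), against 9.16% of all tested genes. The part of muscle and fibroblast content in the values of NRP2, SEMA3C, NTN1 and SLIT2 was not tested.

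Of 10 enteric neuron markers 5 fell in steers, UCHL1, RET, TUBB3 and STMN2 among them, against 9.16% of all tested genes. All 10 had a negative change, with a median log2 change of -2.89. The 10 summed to 7.71 to 17.9 CPM in steers and 37.0 to 69.4 CPM in calves, and none was at 0. Of 7 tested glial and Schwann cell markers 1 fell, a share near the 9.16% of all tested genes, and the list summed to 47.6 to 94.1 CPM in steers and 77.3 to 141 CPM in calves, which overlap. FABP7 could not be measured, since its whole span is shared with another gene. The part of neuron content in the falls of EPHA7, SEMA3A, UNC5A and UNC5C was not tested. The squamous marker sums given above fell together with EPHA2, EPHB6, SEMA4A and SEMA4D, and their part in these falls was not tested either.

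Count ratios within a library do not depend on scaling. Ratios of 10 pairs were computed; the pairs were chosen after their values were seen, so they are given without a test. Counts of SEMA3C over SEMA3F were 0.681, 1.24, 0.945 and 0.625 in steers, against 0.0681, 0.0832, 0.0686 and 0.0859 in calves. The mean log2 ratio was -0.25 ± 0.45 in steers and -3.72 ± 0.18 in calves (SD, n = 4 each), a difference of 3.47. For SEMA3B over SEMA3F the ratio was 4.54 to 9.003 in steers and 0.898 to 1.54 in calves. ROBO2 over ROBO1 was 0.181 to 0.562 in steers and 0.0848 to 0.139 in calves. These 3 ratios did not overlap between the groups, nor did NRP2 over PLXNA1, at 0.429 to 2.03 in steers and 0.141 to 0.329 in calves, and the other 6 of the 10 overlapped. Among those, the mean log2 difference was -0.87 for EPHA2 over EPHA1, -0.32 for EPHB2 over EPHB3, 0.24 for PLXND1 over PLXNA1 and -0.0020 for EFNB2 over EPHB4. SLIT2 over SLIT3 was 0.860, 2.85, 1.83 and 0.169 in steers, against 0.1498, 0.135, 0.198 and 0.194 in calves, so that steer 4 alone had a calf-like ratio. NTN1 over UNC5B was 1.65, 12.2, 5.85 and 0.859 in steers, against 0.571 to 1.03 in calves, again with steer 4 inside the calf range.

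**Figure D5:**
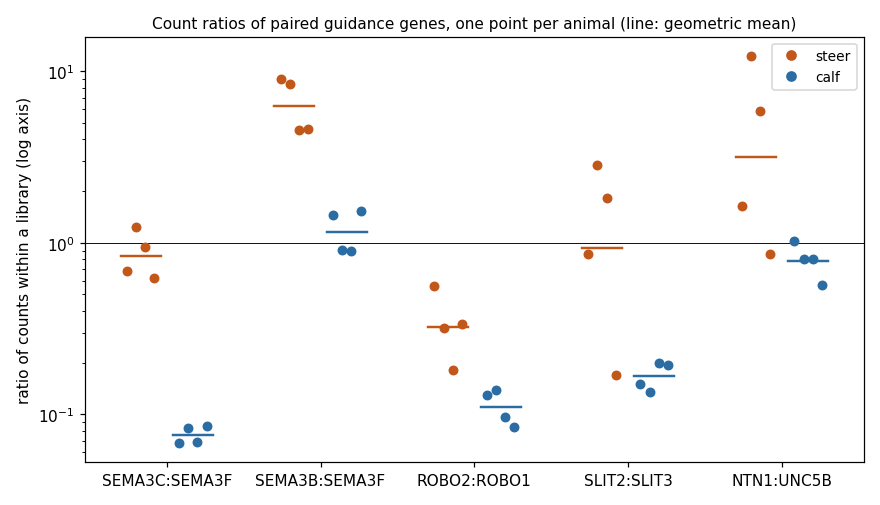
Ratio of counts of gene pairs within each library (log axis), steers in orange and calves in blue, with lines at the geometric means. SEMA3C:SEMA3F, SEMA3B:SEMA3F and ROBO2:ROBO1 separate the groups, and for SLIT2:SLIT3 and NTN1:UNC5B a single steer lies at the calf level.

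Members that lie next to each other in the genome did not always move alike. On chromosome 22, SEMA3B and SEMA3F are 65.9 kb apart with log2 changes of 0.56 and -1.88. On the X chromosome, PLXNB3 and PLXNA3 are 533.9 kb apart with changes of 0.59 and -1.43. On chromosome 7, SEMA6A and UNC5A are 822.4 kb apart and both fell (-1.94 and -2.54). The ephrin genes EFNA3 and EFNA4 on chromosome 3 are 11.5 kb apart, with changes of -0.69 and -0.51 that were not called.

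Other genes of the axon guidance pathway were followed in a list of 100 genes, of which 92 were tested. Of these, 18 fell and 4 rose, which is 23.9% called against 16.9% of all tested genes, with a median log2 change of -0.20. The list and its parts were chosen with earlier results of these data known. Their shares are therefore descriptions and no independent result. Among netrin and repulsive guidance molecule co-receptors, 1 of 3 tested fell, where 9.16% of all tested genes did. It was neogenin (NEO1), with 18.2, 20.9, 24.7 and 26.6 CPM in steers, against 63.5, 63.0, 69.3 and 44.8 CPM in calves (-1.41 ± 0.21, adjusted p = 0.00214). The netrin receptor DCC averaged 0.0641 CPM in steers and 0.157 CPM in calves and was not tested. Of 21 other tested guidance ligands and receptors, 2 fell and 1 rose, a called share (14.3%) near the 16.9% of all tested genes. NTNG2, a membrane-anchored netrin relative, and FLRT2, a ligand of UNC5 receptors, fell by 2.22 ± 0.47 and 1.88 ± 0.27. The myelin protein OMG rose by 3.79 ± 0.79 (1.85 ± 1.55 CPM in steers, 0.130 ± 0.031 CPM in calves), a call lost with limma-voom, with 4.17 as the highest and 3.13 as the lowest change with a library left out.

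Inside the cell, 4 of the 19 genes of the semaphorin list fell. Of these, 3 encode CRMP proteins, a family that relays semaphorin signals to the cytoskeleton (DPYSL5, CRMP1 and DPYSL4). The share called in that list (21.1%) was near the 16.9% of all tested genes. DPYSL5 averaged 0.0383 ± 0.0394 CPM in steers and 1.83 ± 1.24 CPM in calves, CRMP1 averaged 0.0816 ± 0.0961 CPM in steers and 2.14 ± 1.27 CPM in calves, and DPYSL4 averaged 0.399 ± 0.291 CPM in steers and 2.57 ± 0.90 CPM in calves. The steer mean of DPYSL5 lay below the level of 3 counts per library (0.0667 CPM), so its fitted change of -5.39 ± 0.80 is not a measured size. CRMP1 changed by -4.56 ± 0.95, on steer counts of 0, 0, 10 and 8, so its size is imprecise. DPYSL4 changed by -2.68 ± 0.65, and its call ended without steer 3 or calf 1 and with the replicate number as a block. GIPC1, a scaffold that binds neuropilin-1, fell by 1.18 ± 0.25. DPYSL2 and DPYSL3 also encode CRMP proteins and had far more counts, so the family did not fall as a whole. They averaged 70.9 and 79.9 CPM in steers and 46.8 and 28.7 CPM in calves. Their changes of 0.60 ± 0.41 and 1.48 ± 0.59 were not called (adjusted p = 0.35 and 0.116).

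In the Eph list 5 of 17 genes fell and 1 rose, which is 35.3% called against 16.9% of all tested genes. Since the list was chosen with earlier results known, this share is a description only. The Rac exchange factors TIAM1 and VAV2, which act downstream of Eph receptors, were both lower. TIAM1 had 29.0, 21.3, 28.5 and 45.3 CPM in steers, against 91.9, 84.2, 87.5 and 87.7 CPM in calves (-1.50 ± 0.24, adjusted p = 0.00291). VAV2 had 38.02, 30.8, 24.4 and 39.3 CPM in steers, against 94.3, 80.7, 86.3 and 86.2 CPM in calves (-1.39 ± 0.20, adjusted p = 0.0018). The vascular exchange factor ARHGEF15, the Rac-inactivating protein CHN1 and the scaffold GRIP1 fell by 1.69 ± 0.29, 2.07 ± 0.39 and 1.35 ± 0.35, and the GRIP1 call was lost if any of steers 2 and 3 and calves 1, 3 and 4 was left out. NGEF, the exchange factor ephexin, rose, with 134, 94.5, 98.4 and 205 CPM in steers and 66.0, 30.6, 55.8 and 54.4 CPM in calves (1.36 ± 0.32, adjusted p = 0.0174).

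In the SLIT and netrin list 5 of 17 tested genes fell and 1 rose, which is 35.3% called against 16.9% of all tested genes. This share too is a description only, as the list was chosen with earlier results known. SRGAP3 and SRGAP2, GTPase-activating proteins that bind ROBO receptors, fell by 3.02 ± 0.46 and 1.08 ± 0.24. The actin-binding ABLIM1 fell by 0.71 ± 0.20 and the kinase FYN by 1.03 ± 0.25. ENAH, an actin regulator, rose by 1.46 ± 0.38, with 62.5, 164, 156 and 54.1 CPM in steers and 36.5, 49.0, 33.4 and 40.2 CPM in calves. Calls of ENAH and ABLIM1 ended if any of steers 2 and 3 and calves 1, 3 and 4 was left out (ABLIM1 also without steer 1), and that of FYN without steer 1 or calf 2. With library size alone ENAH and FYN were not called, and with no filter ABLIM1 was not. Of 15 shared small GTPases and their effectors 2 were called, a share (13.3%) near that of all tested genes. The kinase PAK4 fell by 1.51 ± 0.26 and the muscle cofilin CFL2 rose by 2.35 ± 0.52, with 43.1, 102, 124 and 23.7 CPM in steers and 13.5, 23.8, 9.36 and 10.5 CPM in calves. The GTPases RHOA, RAC1 and CDC42 had log2 changes of 0.26, 0.26 and 0.23 and were not called (adjusted p = 0.416, 0.405 and 0.443).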

How the data were processed

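Total RNA of rumen tissue was isolated with TRIzol and a column kit, and libraries with dUTP in the second strand went through 10 PCR cycles before paired-end sequencing, per the labels' protocols. The submitters' processing notes name Trimmomatic 0.39, STAR 2.7.11a, featureCounts 2.0.2 and DESeq2 1.42.0. The deposited values are whole-number counts per gene name. Per the file headers, featureCounts 2.0.2 counted over whole transcript spans, so intronic reads are included, with no strand option, and mates were counted separately (86.9% to 89.0% of counts from 1 to 10 were even). Reads of overlapping antisense genes are therefore not separated, and reads in more than 1 gene were dropped. Build and annotation: not given in the sources used here. All 68 members matched a symbol in the RefSeq table of ARS-UCD2.0, used for chromosome numbers and gene lengths only.

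The comparison used edgeR 4.0.16 under R 4.3.3 over the whole table: filterByExpr by group (16326 genes kept), TMM, robust quasi-likelihood fit and Benjamini-Hochberg adjustment, calling an adjusted p under 0.05. SE was taken as |log2 change|/sqrt(F). Adjusted p-values are from this fit unless DESeq2 1.42.0 or limma-voom (limma 3.58.1) is named. The common biological coefficient of variation was 41.8%. The procedure was tested on simulated counts. Group values are means ± SD over 4 animals. Values in every library are given for the most abundant and most changed called members of each family and the most abundant member of each subfamily. Some genes of the pathway and marker lists are counted but not reported by name here. Members and lists were chosen with earlier results of these data known. Within a group, any 2 libraries differed by at least 105 in chi-square over its degrees of freedom, far beyond sampling noise. Low counts limit the precision of values under 1 CPM. The alternatives were 3 scalings, 2 filters, 2 tools, no robust estimation, a replicate block, each library left out, and calf 2 and steer 4 left out together, since an earlier analysis of these data doubted these libraries.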

Additional observations from a re-analysis of the deposited data

Results flagged for a closer look

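Of 126 sets of 4 libraries (a member in 1 group, with at least 10 counts in some library), 3 held a library far from the other animals of its group, and chance gives about 1 in 20 such sets. EPHB1 was at 0.2455 CPM in steer 4, against 0.0373 to 0.0557 CPM in the other steers. EPHA4 was at 0.167 CPM in steer 2, against 0.466 to 0.526 CPM in the other steers. SEMA3E was at 0.5353 CPM in calf 2, against 0.0418 to 0.0466 CPM in the other calves. All of these levels are below 1 CPM.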

How the results depend on the processing

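Of the 23 called members, 13 kept direction and call in every alternative that tested them and 10 lost the call in at least 1 of them, while 12 uncalled members passed in at least 1. Leaving out each library in turn gave 3 to 6 members higher and 11 (without calf 4) to 24 (without steer 4) lower in steers, against 4 and 19. By family the leave-one-out counts were 2 to 7 lower Eph family members, 7 to 12 lower and 2 to 3 higher semaphorin family members, 0 to 2 lower and 1 to 2 higher SLIT family members, and 1 to 3 lower and 0 to 1 higher netrin family members. Those of the other pathway genes were 14 to 20 lower and 3 to 7 higher. Without calf 2 and steer 4, 6 members were higher and 21 lower (SLIT family 2 higher and 1 lower, netrin family 1 higher, other pathway genes 8 higher). DESeq2 gave 1 higher netrin family member and 10 higher other pathway genes. Library size alone left 1 lower SLIT family member and shifted the median log2 change of all genes by -0.11. With at least 1 CPM in 4 libraries, 1 netrin family member was lower, and SEMA3A and UNC5C were not tested. The cause of these shifts was not tested.

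With the replicate number as a block, 4 members were higher and 13 lower, with 3 lower in the Eph family, 1 in the SLIT family and 1 in the netrin family. The calls lost were those of EPHA6, EPHB2, SEMA5B, SEMA6B, ROBO4 and UNC5C. Deviations of same-numbered libraries from their group means correlated at 0.20, 0.08, -0.10 and -0.27. Those of differently numbered libraries ranged from -0.39 to 0.34. The values show no pairing by number, but so few correlations with this spread cannot exclude it. The uncalled members below changed sign. SEMA4C was at -0.074 with library size alone, -0.083 with limma-voom, -0.093 with the block and -0.30 to 0.27 with a library left out. EFNB3 was at -0.0081 with library size alone and -0.14 to 0.75 with a library left out, and SEMA6C at 0.21 without calf 2 and steer 4 and -0.36 to 0.16 with a library left out. With a library left out, EPHA5 ranged from -0.50 to 0.20, SEMA7A from -0.68 to 0.28 and NTN3 from -0.16 to 0.69.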
